A study of Homo sapiens with 2 samples.

Results

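The respiratory chain genes were taken as every gene whose symbol begins with NDUFA, NDUFB, NDUFC, NDUFS, NDUFV, UQCR, COX4, COX5, COX6, COX7, COX8, ATP5F, ATP5M or ATP5P, together with the 13 protein genes of the mitochondrial genome. Of the 36601 genes in the matrix, 107 symbols matched, and 99 of them held at least 100 UMIs (unique molecular identifiers, each marking 1 captured transcript). The 99 genes comprised 13 mitochondrial and 86 nuclear genes. The nuclear genes were 73 structural subunits, 8 complex I assembly factors and 5 others, namely the supercomplex factor COX7A2L, the gene copies UQCRHL and ATP5MGL, and the antisense RNAs NDUFB2-AS1 and NDUFV2-AS1. No measured value other than the UMI minimum chose them.

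The cells were OVCAR5, an established human ovarian carcinoma line, carrying a CFP-marked reporter that senses interferon-gamma (IFNy). Per the labels, 1 pool joined 18 conditions, all of the reporter line. They were unstimulated or exposed to IFNy at 1, 10 or 100 ng/ml, each for 2, 6, 12 and 24 h, and frozen cells of 2 of these, 24 h at 100 ng/ml and 24 h unstimulated, were added. Transcripts were counted in droplets by 3' sequencing, and antibody hashtags were counted beside them. Of 7804 barcodes, 7201 cells passed a minimum of 500 genes and a maximum of 20% mitochondrial UMIs, and their median was 31206 UMIs. The 8 hashtags were used in pairs. A cell was given its 2 highest hashtags when the second held at least 5 times the third plus 1, which placed 6114 cells in 18 pairs of 166 to 493 cells and 5392185 to 16184801 UMIs. A pair is written here by its hashtag numbers, such as 7+8. No source used here ties a pair to a dose, a time or freezing, so the pool is 1 sample, no test between conditions was possible, and every interval below is an exact 95% interval that covers counting error only. All 5 epithelial markers were present, from EPCAM at 58.5 to KRT18 at 2623 CPM (UMIs scaled to a total of 1000000). The T cell markers CD2 and CD3E, the myeloid marker TYROBP, the fibroblast marker COL1A2 and the endothelial marker KDR were at 0 UMIs. The 5 fibroblast markers summed to 169 UMIs and the 5 endothelial markers to 69, while IL7R and CD68, which belong to the T cell and myeloid lists, held 13062 and 6913. The 5 T cell markers summed to 13073 UMIs and the 5 myeloid markers to 8140, with 3 of the myeloid markers at 100 UMIs or more.

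The respiratory chain passes electrons from NADH and succinate to oxygen through complexes I to IV of the inner mitochondrial membrane, and ATP synthase, complex V, uses the proton gradient so made. Complexes I, III, IV and V are built from subunits of both genomes, whereas complex II is wholly nuclear. The nuclear subunits are made in the cytosol and imported, and the mitochondrial messenger RNAs are cut from long transcripts of both strands of the circular genome. The nuclear factors NRF1, GABPA (an ETS protein) and YY1 are known to bind promoters of nuclear subunit genes.

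Promoter windows of 300 bases, from 250 before to 50 after the start, were found in RefSeq tables (GRCh38.p14) for 71 of the 86 nuclear genes. Both strands were searched for fixed motifs. The NRF1 core TGCGCA lay in 25.4% of the 71 windows, against 8.24% of all 35116 promoters. The NRF1 form GCATGCGC, which can overlap the core and was shortened after a longer form had been searched, lay in 18.3% against 3.05%. The ETS motif CCGGAAG lay in 26.8% against 10.3%, and the YY1 motif AAGATGGC in 14.1% against 2.89%. The E-box CACGTG lay in 14.1% against 7.26%. The gamma-activated site (GAS) motif TTCNNNGAA, where N is any base, lay in 7.04% against 7.66%. These matches describe letters in the windows and not bound sites. The median GC content was 61% in the 71 windows and 58.7% in all promoters.

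4 windows are shown because their genes carry results below. NDUFA9 was highest in the 4 pairs where the summed nuclear subunits were lowest, NDUFA8, chosen after its values were seen, is a subunit of the same complex that followed the opposite order, NDUFAF4 varied most among the well counted nuclear genes, and COX8A varied least. Each is printed 5′ to 3′ on the strand of its gene, with NRF1 core, NRF1, ETS and YY1 matches in capitals. The NDUFA9 window is chr12:4648864-4649163 on the + strand, the NDUFA8 window chr9:122159730-122160029 on the − strand, the NDUFAF4 window chr6:96897842-96898141 on the − strand, and the COX8A window chr11:63974370-63974669 on the + strand.
NDUFA9: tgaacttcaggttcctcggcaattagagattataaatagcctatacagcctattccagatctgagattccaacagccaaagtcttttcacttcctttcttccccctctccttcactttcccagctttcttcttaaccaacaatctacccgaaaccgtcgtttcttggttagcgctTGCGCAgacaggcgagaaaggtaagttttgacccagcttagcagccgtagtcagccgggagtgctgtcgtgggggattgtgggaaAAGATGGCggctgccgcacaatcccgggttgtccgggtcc
NDUFA8: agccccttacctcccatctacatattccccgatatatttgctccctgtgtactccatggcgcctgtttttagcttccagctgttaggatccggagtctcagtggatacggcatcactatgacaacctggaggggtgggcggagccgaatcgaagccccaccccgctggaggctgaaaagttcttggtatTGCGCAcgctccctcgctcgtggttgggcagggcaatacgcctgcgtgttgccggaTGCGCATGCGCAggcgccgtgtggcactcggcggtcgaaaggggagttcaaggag
NDUFAF4: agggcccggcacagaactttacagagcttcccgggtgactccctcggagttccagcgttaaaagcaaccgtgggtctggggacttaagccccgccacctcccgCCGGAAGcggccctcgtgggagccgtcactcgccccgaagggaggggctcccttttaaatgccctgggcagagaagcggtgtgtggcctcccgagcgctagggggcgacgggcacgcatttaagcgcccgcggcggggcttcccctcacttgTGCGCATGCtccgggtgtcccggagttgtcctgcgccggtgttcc
COX8A: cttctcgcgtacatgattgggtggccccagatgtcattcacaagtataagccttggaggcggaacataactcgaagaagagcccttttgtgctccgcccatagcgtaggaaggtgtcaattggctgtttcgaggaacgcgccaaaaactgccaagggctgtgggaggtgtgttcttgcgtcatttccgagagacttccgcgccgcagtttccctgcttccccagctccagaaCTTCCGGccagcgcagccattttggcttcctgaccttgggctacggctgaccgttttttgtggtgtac
The NDUFA9 capitals are an NRF1 core and a YY1 match, those of NDUFA8 are a lone NRF1 core and a run of overlapping NRF1 and core matches, those of NDUFAF4 are an ETS match and an NRF1 match that overlaps a core, and those of COX8A are 1 ETS match on the opposite strand.

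The 13 mitochondrial genes made up 11.2% of the UMIs of paired cells, and the 86 nuclear genes 2.58%. A UMI marks 1 captured 3' end whatever the transcript's length, so levels are set beside each other in CPM without a length correction, although capture may differ between genes. Among the mitochondrial genes, MT-CO2, the copper-binding subunit II of cytochrome c oxidase, was highest at a pooled 25924 CPM. MT-CO3 and MT-CO1, the other mitochondrial subunits of complex IV, followed at 19489 and 17380 CPM. MT-ATP6, the proton channel subunit of ATP synthase, stood at 16395 CPM, MT-ND4 at 11350, and MT-CYB, the mitochondrial subunit of complex III, at 9143. The remaining complex I subunits were lower, with MT-ND3 at 4418, MT-ND1 at 3631, MT-ND2 at 2729 and MT-ND5 at 909 CPM. MT-ND4L stood at 164 and MT-ATP8 at 38.6 CPM. Each overlaps its downstream neighbour in the annotation (GENCODE release 29), MT-ND4L with MT-ND4 by 7 bases and MT-ATP8 with MT-ATP6 by 46, and each pair is known to share 1 messenger RNA, so their separate levels depend on how reads were assigned. MT-ND6, at M:14149-14673 and the only protein gene on the other strand, stood at 70.3 CPM.

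The nuclear genes were lower and spanned a wide range. The ATP synthase subunits ATP5F1E (epsilon) and ATP5MC3 (c ring) led at 1051 and 1049 CPM, followed by NDUFA4, a subunit now assigned to complex IV, at 945 CPM. The leading complex IV genes after it were COX8A at 782 and COX6C at 742 CPM, and ATP5MG, a membrane subunit of ATP synthase, stood at 684. In complex III, the hinge protein UQCRH stood at 751 CPM, UQCRB at 710 and UQCRQ at 625. In complex I, the accessory subunits NDUFS6, NDUFA13 and NDUFB9 stood at 534, 465 and 447 CPM. Its core subunits NDUFV2 and NDUFS8, which carry iron-sulfur clusters, stood at 381 and 379 CPM, and NDUFV1, which binds the flavin and NADH, at 154. The assembly factors were lower, led by NDUFAF8 at 194, NDUFAF3 at 143 and NDUFAF2 at 75.0 CPM and ending with NDUFAF7 at 13.2.

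**Figure D1:**
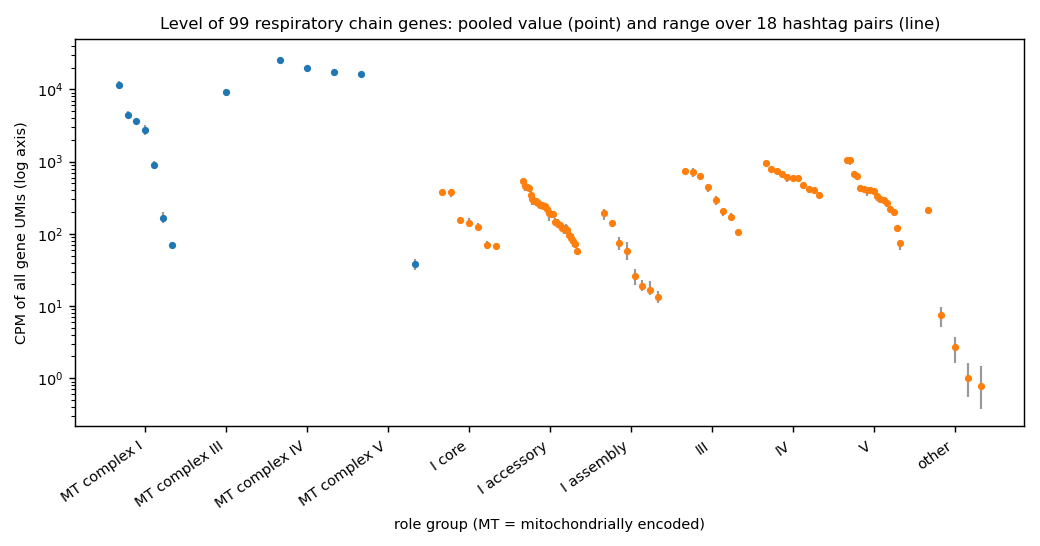
Pooled CPM of all gene UMIs (log axis) of the 99 genes as points, grouped by role, with a line from the lowest to the highest of 18 hashtag pairs. The lines are short beside the differences between genes, which run from 25924 CPM for MT-CO2 to 0.784 CPM for NDUFB2-AS1.

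The tissue-restricted isoforms were near or at 0. COX6A2 and COX7A1, the heart and muscle isoforms, and COX7B2 held 0 UMIs in 7201 cells, so that up to 0.0417% of cells could hold a UMI (3 counts of the total). COX4I2, the lung isoform, held 2 UMIs, COX8C 16, NDUFA4L2, known as a hypoxia-responsive gene, 20, and COX6B2, the testis isoform, 47. NDUFA6-DT, a divergent transcript, was just below the UMI minimum at 53. Just above it stood NDUFB2-AS1 with 192 and ATP5MGL with 248. NDUFB2-AS1 shares 1742 bases with NDUFB2 on the opposite strand and NDUFV2-AS1 shares 13081 with NDUFV2, and ATP5MGL and UQCRHL are near copies of ATP5MG and UQCRH, so the counts of these 4 genes are uncertain. Other members, and SDHA and CYCS below, also have pseudogenes, and the sources used here do not say how shared reads were assigned.

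Across the 18 pairs the summed nuclear subunits varied little. The 73 subunits together ranged from 26047 CPM (25948 to 26147) in pair 5+7, through a median of 25446, to 23220 CPM (23091 to 23349) in pair 2+5. The span, which is the highest over the lowest pair, was 1.12-fold (1.11 to 1.13). Pair 2+5 was followed from below by 6+8 at 23614 CPM, 7+8 at 23674 and 5+8 at 23785. The intervals of 6+8 and 7+8 overlapped, and pairs 3+7, 5+6 and 4+7 stood together between 24560 and 24635. The other 11 pairs lay between 25246 and 26047 CPM. Pair 2+5 was also the pair with most barcodes over the mitochondrial limit, 33 of them or 16.6%, against 0.785% to 7.95% in the other pairs. These barcodes are left out of its sum, and whether their number and its low value are linked was not tested.

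Pair 2+5 was also lowest in the nuclear sum of each complex. The 37 nuclear subunits of complex I ranged from 8311 CPM in pair 5+7 to 7311 CPM in pair 2+5, a span of 1.14-fold (1.12 to 1.15). The 7 core subunits spanned 1.17-fold and the 30 accessory ones 1.13-fold. Complex III ranged from 3465 CPM in pair 1+4 to 3020 in pair 2+5, a span of 1.15-fold (1.13 to 1.17), and complex IV from 6928 CPM in pair 1+4 to 6173 in pair 2+5, a span of 1.12-fold (1.11 to 1.14). Complex V ranged from 7562 CPM in pair 5+7 to 6717 in pair 2+5, a span of 1.13-fold (1.11 to 1.14). The 8 assembly factors of complex I had the widest span of the nuclear groups, 1.31-fold (1.26 to 1.35), from 608 CPM in pair 3+5 to 466 CPM in pair 7+8. Over the 18 pairs the sums of complexes I and III had a Spearman rho of 0.89, I and V of 0.86, III and IV of 0.85, and IV and V of 0.59. These are descriptions of points that share 1 pool, 1 library, 8 hashtags and the CPM total.

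**Figure D2:**
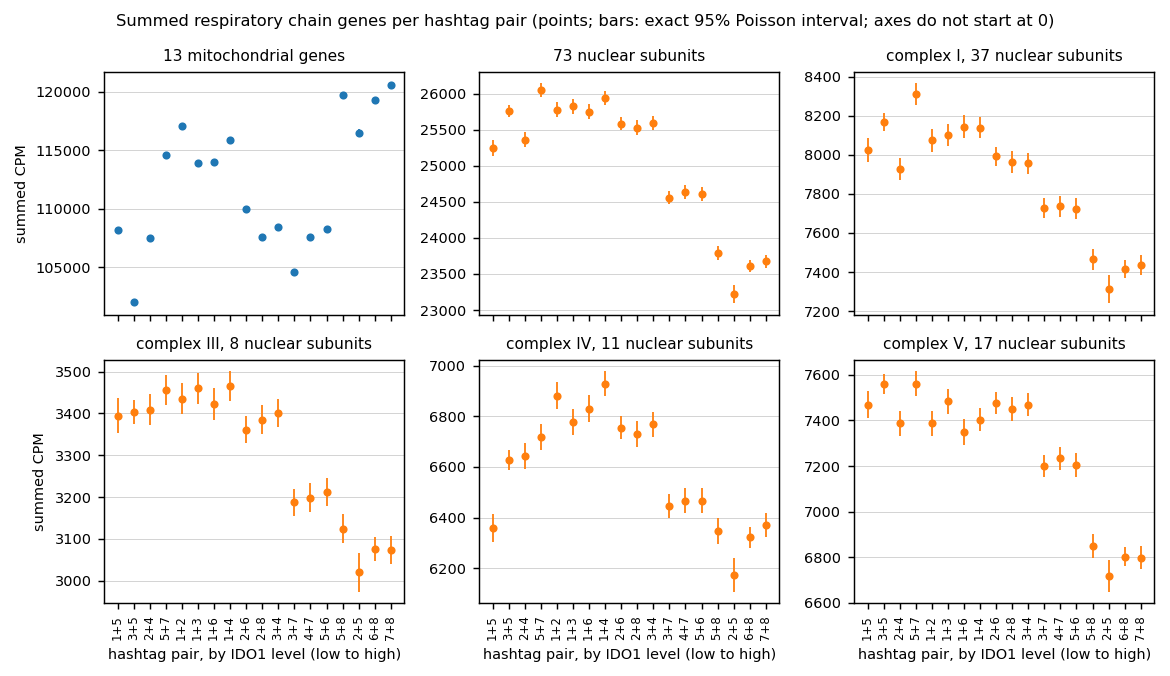
Summed CPM of the mitochondrial genes and of the nuclear subunits, in all and by complex, in 18 hashtag pairs ordered by IDO1 level from low to high, with exact 95% Poisson bars (axes do not start at 0). The sum of all nuclear subunits steps down over the last 7 pairs, to as low as 23220 CPM in pair 2+5, and so do complexes I, III and V. For complex IV, pair 1+5, with the lowest IDO1, is at 6358 CPM, below 7+8 at 6369 and 4+7 at 6467. The mitochondrial sum is highest in pair 7+8 at 120532 CPM.

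The mitochondrial genes followed another order. Their sum ranged from 120532 CPM in pair 7+8, through a median of 111903, to 102040 CPM in pair 3+5, a span of 1.18-fold (1.18 to 1.18). The limit of 20% mitochondrial UMIs per cell caps these values. With no limit pair 2+5 was highest and 3+5 lowest, and with cells up to 10% mitochondrial UMIs pair 2+5 was highest and 2+8 lowest. The 7 complex I genes spanned 1.23-fold, MT-CYB 1.19-fold, the 3 complex IV genes 1.16-fold and the 2 complex V genes 1.17-fold. Single genes spanned from 1.12-fold for MT-CO3 to 1.43-fold for MT-ND4L (202 CPM in pair 7+8 and 141 in pair 2+4). Next to MT-ND4L came MT-ATP8 at 1.41-fold (44.8 CPM in pair 1+6 and 31.8 in pair 2+8) and MT-ND2 at 1.37-fold (3217 CPM in pair 2+5 and 2356 in pair 2+8). MT-ND4 and MT-ND5 spanned 1.30-fold each, MT-ND6 1.28-fold, MT-ND3 1.25-fold, MT-CO1 1.24-fold, MT-CO2 1.18-fold, MT-ATP6 1.17-fold and MT-ND1 1.15-fold. Pair 7+8 was highest for 6 of the 13 genes and pair 3+5 lowest for 8. The ratio of the mitochondrial to the nuclear sum was 5.09 in pair 7+8 and 3.96 in pair 3+5, 1.29-fold apart. Over the 18 pairs the 2 sums had a rho of −0.16, and the mitochondrial sum had a rho of −0.57 with the median UMIs per cell, which ranged from 27824.5 to 32945.

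Gene by gene, the respiratory chain genes spanned less than most genes. Of the 82 nuclear genes with at least 2000 UMIs in paired cells, 4 spanned at least 1.5-fold, and of the 13 mitochondrial genes 0 did, whereas 53.7% of all 7566 genes with that many UMIs did. The count of 0 depended on the cells kept. MT-ND4L spanned 1.54-fold with no mitochondrial limit, 1.60-fold with cells up to 10% and 1.57-fold with thinned cells, and MT-ATP8 spanned 1.52-fold with no limit and 1.62-fold at 10%. At 1.25-fold the counts were 32 of 82 and 7 of 13, against 89.9% of all genes. The median span was 1.24-fold over the nuclear genes and 1.25-fold over the mitochondrial genes, against 1.53-fold over all genes. Since low counts widen spans, genes of at least 10000 UMIs were also compared, and there 2 of 78 nuclear genes spanned at least 1.5-fold, against 33.5% of 2785 genes, and 28 of 78 at least 1.25-fold, against 77%. Over all 99 genes 8 spanned at least 1.5-fold, against 74% of the 13921 genes with at least 100 UMIs. The 77 mitochondrial ribosome genes with at least 2000 UMIs had a median span of 1.30-fold, with 5 at or above 1.5-fold.

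**Figure D3:**
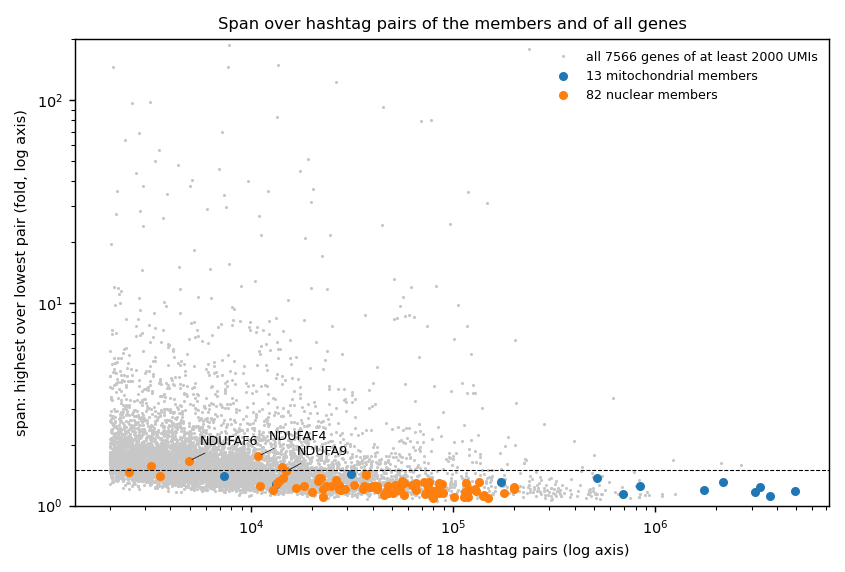
Span (highest over lowest hashtag pair, log axis) against UMIs in paired cells (log axis) for all 7566 genes with at least 2000 UMIs, with the 13 mitochondrial and 82 nuclear respiratory chain genes in colour and a dashed line at 1.5-fold. The coloured points lie along the lower edge of the cloud, and NDUFAF4 and NDUFAF6 are among the 4 above the line.

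All 4 nuclear genes above 1.5-fold were complex I assembly factors. They were 4 of the 8 such factors, near the 53.7% of all genes with at least 2000 UMIs. The median span of the 8 was 1.51-fold, against 1.53-fold over all genes. NDUFAF4 ranged from 76.1 CPM (71.3 to 81.1) in pair 2+6, through a median of 52.4, to 43.5 CPM (39.5 to 47.7) in pair 5+7, a span of 1.75-fold (1.56 to 1.96). It stood at 76.0 CPM in pair 2+4, 74.7 in 3+4 and 74.6 in 2+8, and at 58.8 CPM or less in the other 14 pairs, so 4 pairs stood apart from the rest. NDUFAF6 spanned 1.66-fold (1.41 to 1.96), from 32.9 CPM in pair 3+5 to 19.8 in pair 5+8. NDUFAF5, which hydroxylates the core subunit NDUFS7, spanned 1.56-fold (1.28 to 1.93), and NDUFAF2 1.55-fold (1.41 to 1.71), from 91.3 CPM in pair 3+5 to 58.8 in pair 7+8. NDUFAF7, a mitochondrial methyltransferase, spanned 1.47-fold (1.16 to 1.86) and NDUFAF8, a partner of NDUFAF5, 1.42-fold (1.34 to 1.51). The lowest counts were few for NDUFAF5 and NDUFAF7, which held 3199 and 2508 UMIs over all pairs.

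The other subunits with wide spans were NDUFA9, at 1.48-fold, and NDUFB11, a membrane-arm subunit encoded on the X chromosome, at 1.43-fold (1.32 to 1.56). NDUFB11 stood at 219 CPM in pair 1+3 and at 153 in pair 2+5, with the other pairs no lower than 180 CPM. At the other end, COX8A had the smallest span, 1.09-fold (1.05 to 1.12), from 817 CPM in pair 5+7, through a median of 781, to 753 in pair 7+8. COX6B1, at the intermembrane face of complex IV, also spanned 1.09-fold. NDUFS6 spanned 1.1-fold, and COX7A2 and NDUFA7 spanned 1.11-fold.

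The pairs differed strongly in interferon response genes, and the respiratory chain genes were set against these. IDO1, the interferon-inducible enzyme of tryptophan breakdown, ranged from 4298 CPM in pair 7+8 to 24.1 in pair 1+5. It had the widest span of 10 interferon response genes at 179-fold, before the chemokine CXCL10 at 123-fold and HLA-DRA, of MHC class II, at 82.7-fold. Its values fell into 3 separate ranges, with 8 pairs between 24.1 and 72.3 CPM, 3 between 550 and 662, and 7 between 1574 and 4298. The ranges were cut where neighbouring values differed by more than 2-fold. Both this cut and the ordering of pairs by IDO1 were chosen after the data were seen. IRF1, an early interferon response factor, ranged from 1357 CPM in pair 1+6 to 43.7 in pair 2+4 and followed another order, with a rho of 0.37 with IDO1. A rho below is over all 18 pairs unless a range is named, and it describes order in 1 pool with no test.

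Most nuclear genes ranked lower where IDO1 ranked higher. Of the 82 nuclear genes, 55 had a rho with IDO1 of −0.5 or below, against 26.6% of 7565 genes, and 1 had a rho of 0.5 or above, against 11.6%. The median rho was −0.61 over the 82 and −0.19 over all genes. Low counts can draw a rho toward 0, and 78 of the 82 held at least 10000 UMIs, as did 2785 of all genes. At that minimum the median rho was −0.61 over the 78 and −0.20 over the 2785. There 53 of the 78 had a rho of −0.5 or below, but the share of all genes was not counted. By role, the 55 were 4 of 7 core and 18 of 30 accessory complex I subunits, 4 of 8 assembly factors, 8 of 8 complex III, 6 of 11 complex IV and 14 of 17 complex V subunits, and COX7A2L. Against IRF1, 2 of 82 had a rho of −0.5 or below, where 8.42% of all genes did, and 0 reached 0.5, where 3.81% did. With nuclear genes set over nuclear-encoded UMIs alone, 48 of 82 had a rho with IDO1 of −0.5 or below, against 25.1% of nuclear genes, and 1 had a rho of 0.5 or above, against 12.3%. Of the 13 mitochondrial genes, 0 passed either limit with IDO1, and their sum had a rho of 0.46.

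The order did not hold within each range of IDO1. The nuclear sum had a rho with IDO1 of −0.75 over all 18 pairs and also over the 7 pairs above 1574 CPM, but of 0.55 over the 8 pairs up to 72.3 CPM. Complex I had 0.24 over those 8 pairs and −0.82 over the 7, complex III 0.83 and −0.75, complex IV 0.93 and −0.64, and complex V −0.36 and −0.79. Among the 8, the IDO1 intervals of 1+5, 3+5, 2+4 and 5+7 overlapped, at 24.1 to 27.1 CPM. Those of 1+4 and 1+6 overlapped too. A rho over these 8 thus largely sets 1+2, 1+3, 1+4 and 1+6, at 36.5 to 72.3 CPM, against those at 24.1 to 27.1. Of the 8, pairs 1+3, 1+4 and 1+6 held IRF1 at 1322 to 1357 CPM and the others at 43.7 to 70.8. The 8 low pairs held 25246 to 26047 CPM of nuclear subunits, the middle 3 held 25529 to 25593, and the 7 high pairs held 23220 to 24635. The mitochondrial sum had a rho of 0.67 over the 8 low pairs and 0.89 over the 7 high ones. Other sums moved with the nuclear one, and their part was not tested. The glycolysis genes had a rho of −0.82 with the nuclear subunit sum, the S phase genes −0.49, and the median UMIs per cell −0.42.

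**Figure D4:**
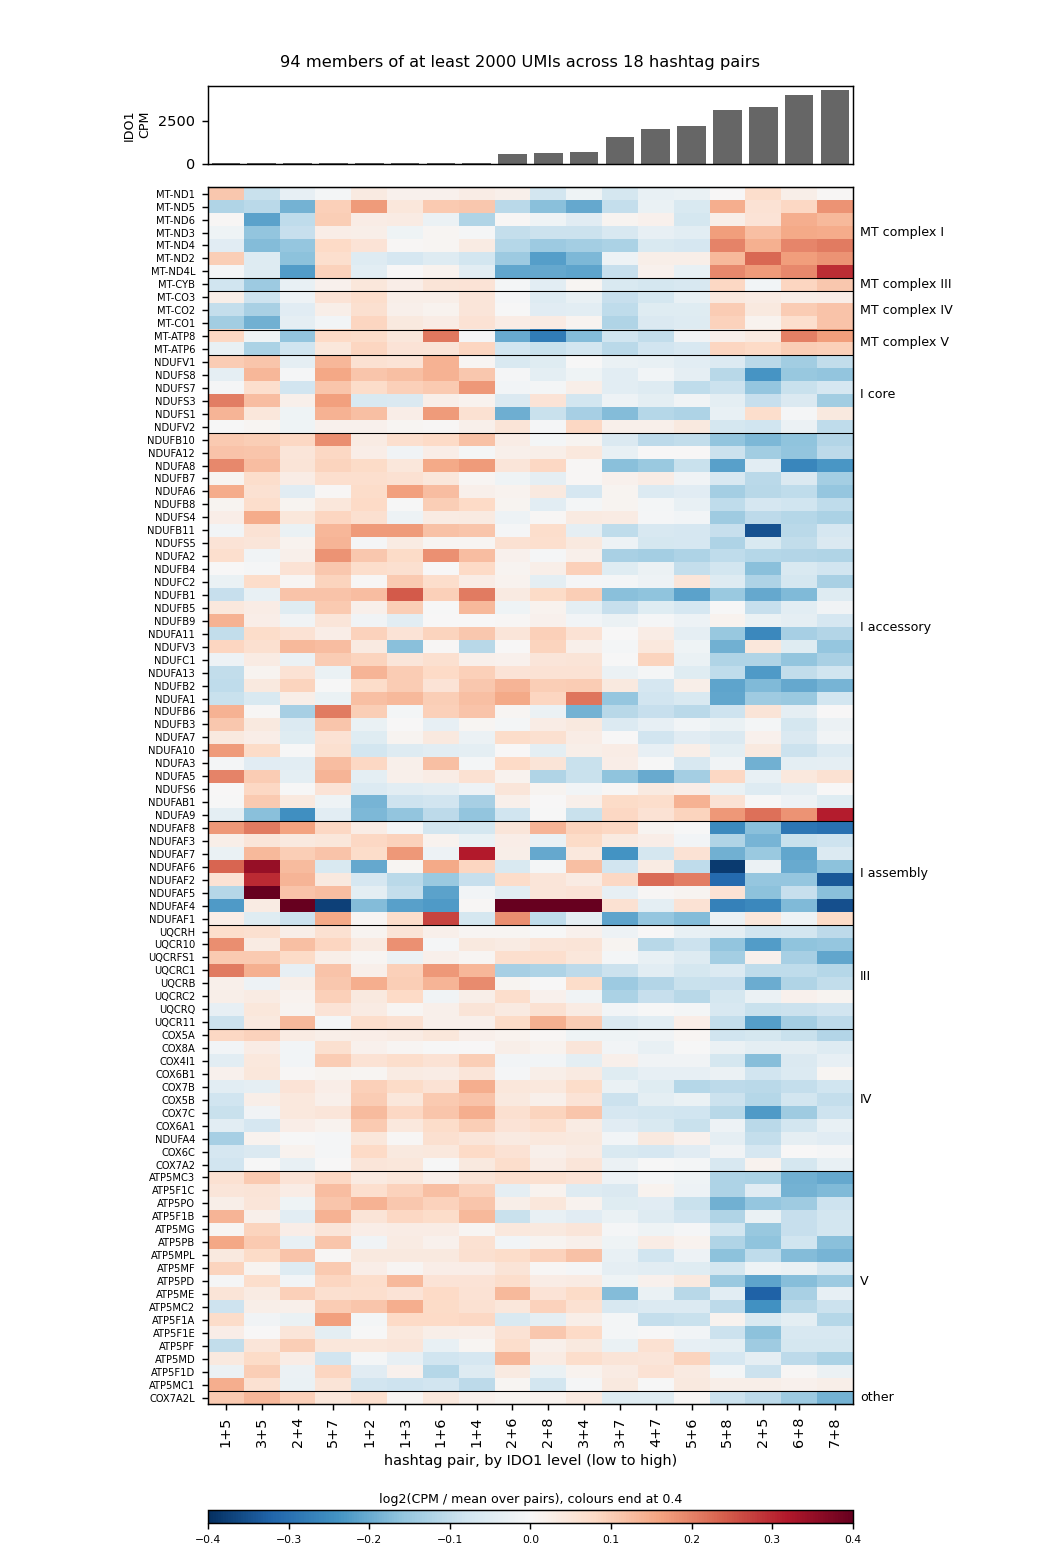
94 of the 95 genes with at least 2000 UMIs by role, and within a role by their rho with IDO1, over 18 hashtag pairs ordered by IDO1 level from low to high (bars above), as log2 of CPM over the mean of the pairs. Most nuclear rows turn from red to blue toward pair 7+8, NDUFA9 runs the other way, and NDUFAF4 stands out in pairs 2+4, 2+6, 2+8 and 3+4.

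The 3 lowest rho values with IDO1 belonged to UQCRH, COX7A2L and COX5A. UQCRH ranged from 788 CPM in pair 1+5, through a median of 755, to 698 CPM in pair 7+8, a span of 1.13-fold (1.09 to 1.17), with a rho of −0.95. COX7A2L, which helps complexes III and IV join into supercomplexes, ranged from 233 CPM in pair 3+5 to 186 in pair 7+8, 1.25-fold (1.18 to 1.32), with a rho of −0.94. Within the 8 low and the 7 high pairs the rho of UQCRH was −0.83 and −0.93, and that of COX7A2L was −0.88 and −0.89. Both genes were picked by their rho over all pairs, which include these. The same direction within the ranges is therefore no separate evidence. Among the 8 low pairs UQCRH stood between 755 and 788 CPM, with overlapping intervals at these 2 ends. COX7A2L stood between 213 and 233 CPM there, and the intervals at its ends did not overlap. COX5A, a matrix-side subunit of complex IV named here after its value was seen, had a rho of −0.93, from 503 CPM in pair 3+5 to 435 in pair 7+8.

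NDUFA9 was the 1 nuclear gene with a rho above 0.5. It encodes an accessory subunit at the junction of the peripheral and membrane arms of complex I. It ranged from 98.4 CPM (92.6 to 104) in pair 7+8, through a median of 76.9, to 66.6 CPM (61.6 to 72.0) in pair 2+4, a span of 1.48-fold (1.34 to 1.63), with a rho of 0.84. Pairs 2+5, 6+8 and 5+8 came next at 92.2, 89.5 and 89.1 CPM, which are the pairs where the summed nuclear subunits were lowest. Within the 7 high pairs its rho was 0.93, and within the 8 low pairs it was −0.02, where it stood between 66.6 and 76.9 CPM. NDUFA8, another accessory subunit of complex I, ranged from 134 CPM in pair 1+5 to 98.2 in pair 6+8, with a rho of −0.85. Both windows printed above hold the NRF1 core, but only that of NDUFA9 holds the YY1 motif and only that of NDUFA8 the NRF1 form GCATGCGC. The NDUFA9 window is also among the 5 with the shortened interferon-stimulated response motif, a form chosen after values were seen, and that of NDUFA8 is not. Any bearing of these letters on the levels was not tested.

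The 3 genes for the c subunit of ATP synthase, which encode the same mature protein, differed among themselves. ATP5MC3 ranged from 1125 CPM in pair 3+5 to 908 in pair 7+8, with a rho with IDO1 of −0.80. ATP5MC2 ranged from 444 CPM in pair 1+3 to 339 in pair 2+5, with a rho of −0.60. ATP5MC1 ranged from 696 CPM in pair 1+5 to 586 in pair 1+4, with a rho of 0.04 with IDO1 and of −0.57 with IRF1.

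C15orf48, a paralog of NDUFA4 whose product can take its place in complex IV, is not among the 99 genes and was low, with 2269 UMIs in 7201 cells. It ranged from 16.0 CPM (13.7 to 18.6) in pair 7+8, through a median of 9.67, to 2.46 CPM (1.59 to 3.63) in pair 5+7, a span of 6.51-fold (4.27 to 10.3). Its rho with IDO1 was 0.84 over all pairs, 0.52 over the 8 low ones and −0.04 over the 7 high ones. NDUFA4 ranged from 986 CPM in pair 1+6 to 858 in pair 1+5, a span of 1.15-fold, and had a rho of −0.15 with C15orf48.

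**Figure D5:**
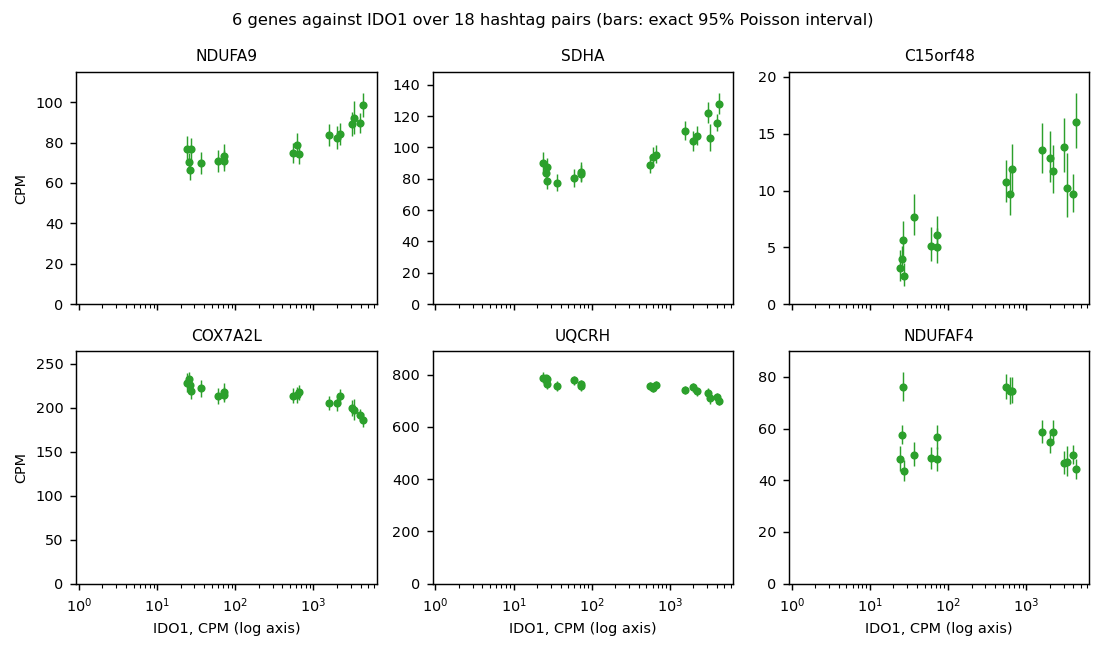
CPM of 6 genes against IDO1 CPM (log axis) over 18 hashtag pairs, with exact 95% Poisson bars. NDUFA9, SDHA and C15orf48 are highest in pair 7+8, COX7A2L and UQCRH are lowest there, and NDUFAF4 has 4 pairs between 74.6 and 76.1 CPM apart from the rest.

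Complex II and cytochrome c, which the symbol rule leaves out, were read beside them. SDHA, the flavoprotein of succinate dehydrogenase, ranged from 128 CPM in pair 7+8, through a median of 91.9, to 77.4 CPM in pair 1+2, a span of 1.65-fold (1.51 to 1.81), with a rho with IDO1 of 0.85. Within the 8 low pairs the rho of SDHA was −0.31, and within the 7 high pairs it was 0.57. SDHB, its iron-sulfur partner, ranged from 106 CPM in pair 1+5 to 82.7 in pair 2+5, with a rho of −0.82. The membrane anchor genes SDHC and SDHD spanned 1.16-fold and 1.17-fold, with rho of −0.05 and −0.85. CYCS, cytochrome c itself, ranged from 953 CPM in pair 3+5 to 637 in pair 7+8, 1.5-fold (1.45 to 1.54), and CYC1, cytochrome c1 of complex III, spanned 1.21-fold.

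Genes that build or regulate the chain were set beside the 53.7% of all genes that spanned at least 1.5-fold. Of 36 further assembly factors of at least 2000 UMIs, 13 did, a smaller share, led among genes of at least 1000 UMIs by SCO1, a copper chaperone of complex IV, at 2.03-fold, PET117 at 1.96-fold and UQCC1, a complex III factor, at 1.84-fold. Of 15 genes of mitochondrial transcription and RNA handling, 8 did, about the share of all genes. TWNK, the mitochondrial helicase, had the widest span of that list at 2.45-fold, then MTERF3, of the mitochondrial termination factor family, at 2.06-fold and SUPV3L1 at 1.87-fold. Of 7 regulators 6 did. The median span was 1.40-fold over the assembly factors, 1.51-fold over the transcription and RNA genes and 1.91-fold over the regulators, against 1.53-fold over all genes. MYC ranged from 153 CPM in pair 1+2 to 34.8 in pair 5+7, 4.39-fold, PPRC1 spanned 2.06-fold and GABPB1 1.96-fold. The nuclear sum had a rho of 0.41 with MYC, and NDUFAF4 one of 0.47.

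Sums of neighbouring pathways had spans of similar size. The 12 tricarboxylic acid cycle genes summed to a span of 1.1-fold, and OGDH had the widest single span at 1.75-fold, before FH at 1.47-fold and IDH3A at 1.38-fold. The glycolysis sum ranged from 10563 CPM in pair 2+5 to 8754 in pair 1+2, 1.21-fold, with HK1 at 3.21-fold, HK2 at 3.13-fold and LDHB at 2.50-fold. The mitochondrial ribosome sum ranged from 11001 CPM in pair 3+5 to 9443 in pair 7+8, 1.17-fold, and had a rho of −0.85 with the mitochondrial gene sum. MRPL33 had the widest span in that list at 1.83-fold, with MRPL34 at 1.67-fold and MRPS26 at 1.54-fold. Of its 77 genes, 19 had a rho with IDO1 of −0.5 or below, close to the 26.6% of all genes.

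Between single cells of a pair, the nuclear complexes went together. For this, 5956 paired cells were thinned to 10000 UMIs each, and 158 shallower ones, 5 to 19 per pair, were left out. The median cell held 229 to 259 UMIs of nuclear subunits, depending on the pair. As shares of nuclear-encoded UMIs, complexes I and V had a median rho of 0.42 over the 18 pairs, I and IV 0.33, IV and V 0.33, and I and III 0.26, and all 6 combinations were above 0 in 18 of 18 pairs. The nuclear subunits had a median rho of −0.32 with the G2/M genes, below 0 in every pair, and of 0.21 with the mitochondrial ribosome genes. With the glycolysis genes it was 0.14, above 0 in 18 of 18 pairs, so the sign between cells of a pair was opposite to that between pairs. With the sum of the 10 interferon response genes it was 0.03, above 0 in 12 of 18 pairs. Over pairs, in CPM of all gene UMIs, the nuclear sum had a rho of −0.77 with the same 10-gene sum. That negative order was not seen between cells of a pair on the scale used here. The mitochondrial genes had a median rho of 0.18 with the interferon response genes, above 0 in 18 of 18 pairs. These sums rest on few UMIs per cell, so the size of a rho is held down by counting noise.

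Nuclear and mitochondrial sums were not ordered together across cells. Over all UMIs of the thinned cell their median rho was −0.22, from −0.13 to −0.33 between pairs, but the 2 sums share 1 fixed total. With the nuclear subunits set over nuclear-encoded UMIs the median rho was −0.0041, from 0.09 to −0.10. By complex, the mitochondrial share had a median rho of 0.07 with nuclear complex IV, above 0 in 17 of 18 pairs, and of −0.04 with nuclear complex V, above 0 in 6.

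The 95 paired cells with at least 1 UMI of SERPINB3, a serpin that marked a small set of cells in earlier results of these data, had another balance of the genomes. There were 2 to 10 such cells per pair, so each ratio within a pair rests on few cells. A rule of at least 1 UMI can favour deeper cells, and their depth was not compared. The mitochondrial genes summed to 52142 CPM in the SERPINB3 cells and 112937 CPM in the other cells, lower in 18 of 18 pairs, with a median ratio of 0.46 within a pair. The nuclear subunits summed to 31795 CPM in SERPINB3 cells and 24912 CPM in the other cells, higher in 18 of 18 pairs, with a median ratio of 1.26, or 1.19 over nuclear-encoded UMIs alone. Over nuclear-encoded UMIs the median ratio was 1.35 for the complex I accessory subunits and 1.30 for complex V, each higher in 18 of 18 pairs. It was 1.07 for complex III, higher in 16 pairs, 1.02 for complex IV, higher in 12, and 0.93 for the complex I core subunits, higher in 5. Over nuclear-encoded UMIs, NDUFAF6 was 3.08-fold (2.74 to 3.44), NDUFA7 2.66-fold (2.52 to 2.82) and ATP5F1E 2.61-fold (2.56 to 2.65) as high in SERPINB3 cells as in the others, NDUFS4 0.38-fold (0.32 to 0.44) and MT-CO3 0.30-fold (0.30 to 0.31). These genes were picked after their values were seen. Without the 95 cells the mitochondrial sum spanned 1.19-fold and the nuclear sum 1.12-fold between pairs.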

How the data were processed

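The deposited values are raw UMI counts of genes and hashtags in each barcode. Per the file headers the matrix came from Cell Ranger 5.0.1. Version 2.1.1 and GRCh38 stand in the submitters' processing notes, and which version applies was not settled. The calling of barcodes is not described in the sources used here. 603 barcodes failed the cell filter. CPM is the UMI sum of a hashtag pair's cells over that pair's total gene UMIs, scaled to 1000000. Intervals are exact Poisson intervals of levels and exact conditional intervals of ratios at 95%, with a lowest count of at least 3. Spearman rho was taken over pairs or over cells, with no test. The calculations were tested on simulated data. Doublets within a pair cannot be seen by hashtags, no doublet caller was run, and free RNA was not subtracted.

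The genes, lists and the rule for named genes were chosen with earlier results of these data known. The rule names the mitochondrial genes, the 3 highest genes of each role, the 10 widest and 5 narrowest spans among genes of at least 2000 UMIs, the genes next to the UMI minimum, the tissue-restricted isoforms, the ATP5MC genes, and the 3 widest spans of each other list. Gene positions come from GENCODE release 29 and promoters from RefSeq (GRCh38.p14). The NRF1 motif was first searched in a longer form, found in fewer member windows, and was shortened after those values were seen. An interferon-stimulated response motif was treated alike: its longer form lay in no member window, and the shorter form chosen afterwards in 5, so no share is given for it. The calculations used scipy 1.17.1 and numpy 2.4.6 in Python 3.11.15. 1 gene is counted in sums and totals but is not reported here by itself.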

Additional observations from a re-analysis of the deposited data

Results flagged for a closer look

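Barcodes outside the comparison carried the nuclear subunits too. In the 576 barcodes over 20% mitochondrial UMIs, the 73 nuclear subunits summed to 23930 CPM (23695 to 24167) of nuclear-encoded UMIs, against 28208 CPM in paired cells. These barcodes were shallow, with a median of 5423 UMIs, and 58.1% of their UMIs were mitochondrial. Many also failed the gene minimum, since all but 27 of the 361 barcodes under 500 genes were among them. The 1087 cells without a hashtag pair, whose median depth was 51617 UMIs against 30005.5 in paired cells, held 30769 CPM (30719 to 30819). Both were noted as signal in barcodes that the values by pair do not use.

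The make-up of the mitochondrial UMIs was close in the first set. Complex I, III, IV and V genes held 20.7%, 7.75%, 55.2% and 16.4% of mitochondrial UMIs in the barcodes over the limit, against 20.8%, 8.19%, 56.2% and 14.7% in paired cells. MT-ND6 held 0.145% in the barcodes over the limit and 0.063% in paired cells.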

How the results depend on the processing

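The pair lowest in nuclear subunits was 2+5 in every alternative run for that sum, while the highest was 5+7 or 1+3. The count of members spanning 1.5-fold was 4, and became 8 with no mitochondrial limit, 13 with cells up to 10% mitochondrial UMIs, 9 with cells thinned to 10000 UMIs and 8 with members of at least 100 UMIs. The 10% limit leaves 1767 cells, 37 to 208 per pair, and the other settings but the first also test lower counts. The span of the nuclear sum became 1.15 with no mitochondrial limit, 1.14 at 10% and 1.11 as a median over cells. The span of the mitochondrial sum became 1.35 with no limit, with pair 2+5 then highest, 1.11 at 10%, with 2+5 highest and 2+8 lowest, 1.19 without SERPINB3 cells, 1.21 over nuclear-encoded UMIs and 1.18 as a median over cells. The ratio of the 2 sums between its extreme pairs became 1.54 with no limit and 1.22 at 10%, with the same changes of pair, 1.29 without SERPINB3 cells and 1.30 as a median over cells. The correlation over cells, −0.22, became −0.0041 over nuclear-encoded UMIs, which removes the shared total, and its direction was lost, with 9 of 18 pairs above 0. It stayed below 0 in every pair in the other settings run. The median over cells and the nuclear-encoded share in single cells were chosen after seeing the data. The causes of the other moves were not tested. Nuclear genes with a rho with IDO1 of −0.5 or below numbered 34 to 58, with 18% to 27.5% of all genes, and NDUFA9 kept a rho of 0.81 or above. Of 138 recomputed spans of 23 named genes, 120 stayed inside their counting interval. No paired analysis was possible because the groups are 1 pool with no replicates.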
